A study of Rattus norvegicus with 6 samples.

Results

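Matrix metalloproteinases (MMPs), tissue inhibitors of metalloproteinases (TIMPs), ADAMTS proteinases and ADAMTS-like proteins (ADAMTSL) were examined in rat lung after bleomycin. The genes were chosen by symbol alone, as every row of the transcript table whose gene symbol was Mmp, Timp, Adamts or Adamtsl followed by a number. This gave 115 of 70376 transcripts and 40 of 21655 named genes, namely 13 MMP, 4 TIMP, 19 ADAMTS and 4 ADAMTSL genes. The level of a gene is the sum, in each sample, of the FPKM (fragments per kilobase of transcript, scaled to the mapped fragments of the library) of all transcripts that carry its symbol, so levels of different genes are compared per length. Mmp3, Mmp7, Mmp10 and Mmp28 are not analysed here.

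The lungs came from Sprague-Dawley rats that were 7 weeks old at the start. In the pulmonary fibrosis (PF) model group, 3 rats had received bleomycin, a DNA-damaging drug that injures the lung, at 7 mg/kg as a single dose into the trachea. The control group of 3 rats had received saline instead. Lung tissue was taken on day 28, and 1 library depleted of ribosomal RNA was made from each rat with a kit that marks the strand. Whole lung was sequenced, so that fewer cells of a type and less RNA per cell cannot be told apart. With 3 rats a group, each p-value weighs the difference between group means against the spread of samples within the groups. That spread is moderated by limma over all genes or transcripts tested.

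MMPs are zinc-dependent enzymes that cut collagens, elastin and other matrix proteins, and most are made as inactive proenzymes. TIMPs bind the active enzymes and block them, and TIMP2 also takes part in activating proMMP2 at the cell surface together with MMP14. ADAMTS enzymes are secreted relatives that cut proteoglycans, procollagen ends or von Willebrand factor, while the ADAMTSL proteins share their binding modules and lack the catalytic domain. In fibrotic lung these families are studied as part of the balance between matrix deposition and breakdown.

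The 6 libraries resembled each other about as closely between groups as within them, with a mean Pearson r over genes of 0.970 between and 0.969 within groups. Per-base coverage for each unit of FPKM lay between 6.39 and 7.33, so the libraries were of similar depth, and summed coverage was 208 to 308 for Mmp2 but 0 to 7.96 for Mmp13. Sftpc, which marks type 2 alveolar cells, was at least 2410 FPKM in every sample. Heart muscle markers stood out in model 3: Myh6, the atrial myosin heavy chain, was listed at 0 in the 3 controls and in model 1, and was 0.0339 FPKM in model 2 and 5.11 FPKM in model 3. The summed level of the 5 cardiac markers was 6.88 to 11.4 FPKM in control and 6.41 to 27.7 FPKM in model samples.

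Promoter windows are shown for 3 of the members described further on, Mmp12, Mmp13 and Timp2, picked to illustrate motifs that their promoters hold. RefSeq promoters (GRCr8, 250 bases before to 50 bases after the start) were at hand for 29 of the 40 genes. The AP-1 motif TGANTCA, which binds Fos and Jun proteins, was found on either strand in 2 of these 29 promoters, those of Mmp12 and Mmp13, and in 6.99% of all 27457 promoters. Capitals mark the motif in each of the following windows, which are written 5′ to 3′ on the strand of the gene. The first pair holds the AP-1 motif, and the second pair holds TATAAA, the core of a TATA box.

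Mmp12, chr8:12866554-12866583, plus strand: gacatcaacagTGAGTCAtattgaggattt

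Mmp13, chr8:12782752-12782781, plus strand: accccaagtggTGACTCAtcactattgctc

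Mmp12, chr8:12866601-12866630, plus strand: gctctagggttaTATAAAgtgggactttaa

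Mmp13, chr8:12782770-12782799, plus strand: tcactattgctcTATAAAatagagaatgct

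The AP-1 motif began 87 bases before the start of Mmp12 and 66 bases before that of Mmp13. TATAAA in the sense direction was in 5 of the 29 promoters (Adamts1, Adamtsl2, Mmp12, Mmp13 and Mmp21), against 8.93% of all promoters. The promoter of the inhibitor Timp2 had neither motif and held CCGCCC, the reverse complement of the GC box GGGCGG. The box was on either strand in 16 of the 29 promoters and in 33.5% of all. Genes with a motif included both abundant and scarce ones: TATAAA was in Adamts1 as well as Mmp13, and the GC box in Adamts3 and Adamts20 as well as Timp2. The median GC content of the 29 promoters was 65.2%, against 52.0% for all. A match describes the letters only, and these coordinates belong to GRCr8, while the transcript coordinates given further on are those of the deposited table, whose build is not given in the sources used here.

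Timp2, chr10:104089251-104089280, minus strand: tgcgctcgctcgCCGCCCcctagcctcttt

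The inhibitors were the most abundant members, led by Timp3 with a mean of 62.4 FPKM over the 6 samples and Timp2 with 52.9 FPKM. These genes made up 50.3% and 42.6% of the summed TIMP level. Among the proteinases the order was Mmp2 at 36.4, Adamts10 at 22.4, Mmp15 at 20.3, Adamts1 at 20.0, Adamts17 at 19.7, Adamts6 at 17.8 and Mmp14 at 17.5 FPKM. Timp2 lay above Mmp2 within every sample, and every Mmp2 value lay above every Adamts10 value. Between Timp3 and Timp2, and between each pair of neighbours from Adamts10 to Mmp14, the order was not the same in all samples. The sums of Adamts17 and Adamts6 were for the most part intronic, as described further on. At the other end, 11 of the 39 members tested had a mean under 1 FPKM, among them the neutrophil collagenase Mmp8, the gelatinase Mmp9 and the collagenase Mmp13.

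**Figure D1:**
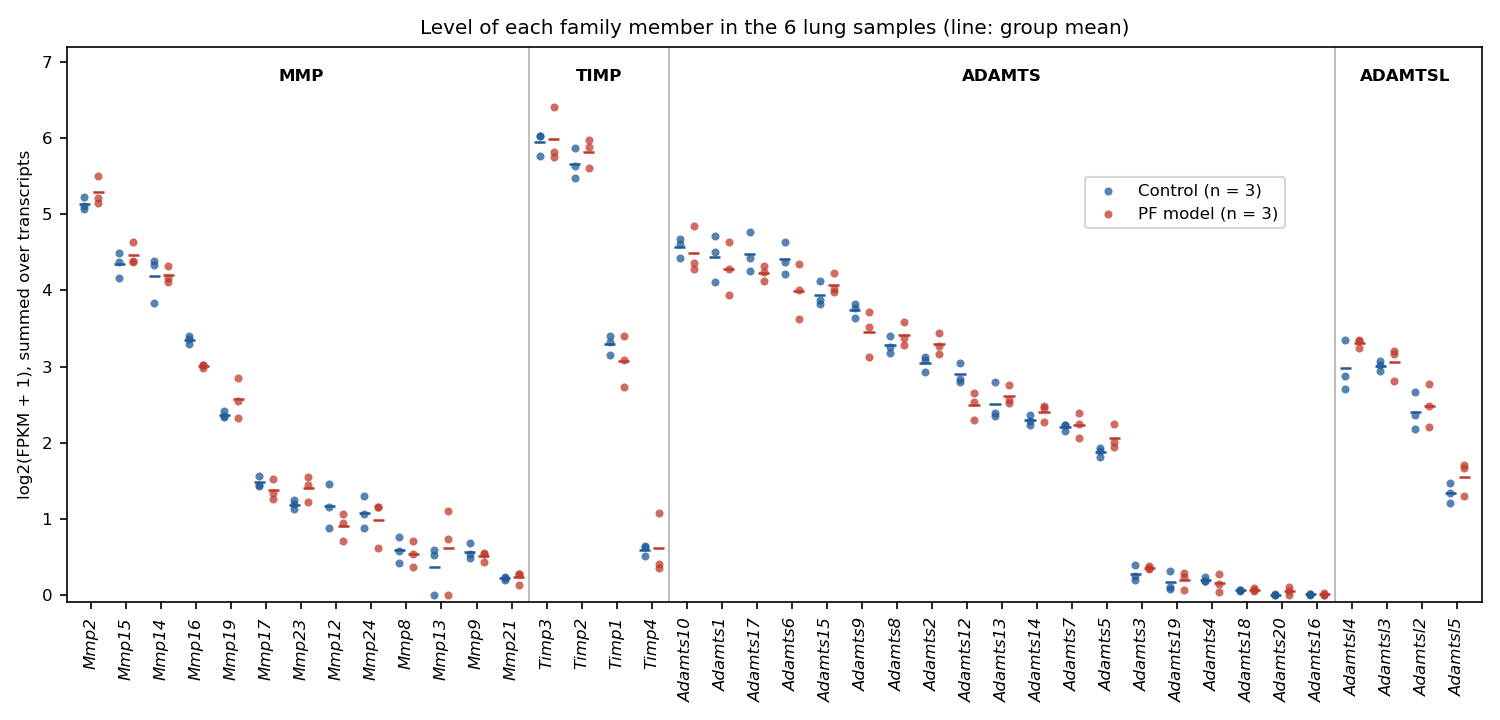
Level of each of the 40 genes in each lung sample, as log2(FPKM + 1) summed over transcripts, with control samples in blue and PF model samples in red (n = 3 each) and short lines for group means. Timp3, Timp2 and Mmp2 stand highest, and in most genes the points of the groups overlap, while those of Mmp16, Adamts12, Adamts2 and Adamts5 lie apart.

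No gene of the families was called different between PF model and control. To be called, a gene needed an unadjusted p from limma no higher than 0.05 and a log2 ratio between group means of 1 or more in either direction. By this rule 0 of the 39 members tested were called, against 1.53% of all 19203 genes tested. The 293 genes called over the whole table were 132 higher and 161 lower in the model, a split that was 194 higher and 138 lower after rescaling each sample to TPM. At an unadjusted p of at most 0.05 alone, limma found 2 members, Mmp16 and Adamts12, both with lower values in the model. Over all genes tested, 4.90% passed, and 2.73% passed with lower values in the model. The smallest Benjamini-Hochberg adjusted p of a member was 0.934, and 2 genes of the whole table, 0.0104%, were below 0.05.

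The estimated differences were small. On the log2(FPKM + 1) scale, which understates the change of weakly expressed genes, 24 members had a higher and 15 a lower estimate, and the median difference was 0.03, against -0.01 over all genes. The 95% interval of each of the 39 members lay within 1 log2 unit of no difference, the widest bounds being -0.90 for Adamts6 and 0.97 for Mmp13. The ranges of the groups did not overlap for 4 members, Adamts2 and Adamts5 higher and Mmp16 and Adamts12 lower, while 10.7% of all genes were separated in this way, 4.86% higher and 5.83% lower.

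**Figure D2:**
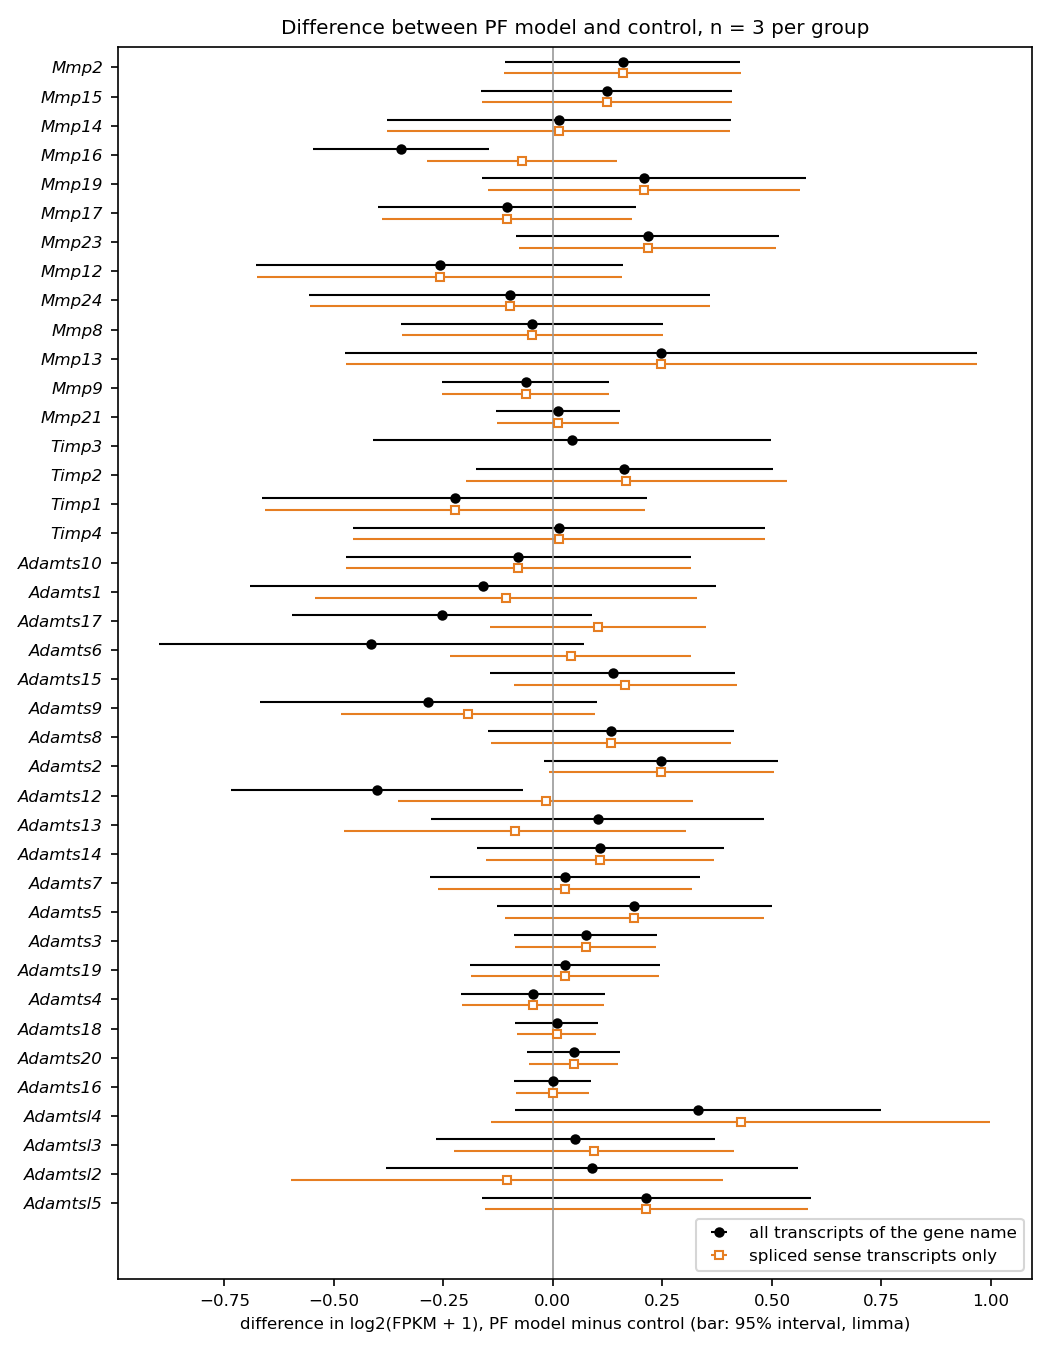
Difference in log2(FPKM + 1), PF model minus control (n = 3 each), for every family member, with 95% intervals from limma. Black circles use all transcripts of a symbol and orange squares use spliced transcripts on the gene's strand only, which moves Mmp16 from -0.35 to -0.07 and Adamts12 from -0.40 to -0.02.

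Mmp2 and Mmp9 are the gelatinases, which cut denatured collagen and basement membrane collagen. Mmp2 stood at 36.5, 32.5 and 33.6 FPKM in the controls and at 36.3, 34.6 and 44.6 FPKM in the model samples. Model 3 was highest and the other model samples lay within the control range or close to it. The difference was 0.16 ± 0.11 (log2, SE, n = 3 per group) with a limma p of 0.200. Mmp2 alone made up 38.8% of the summed MMP level. Mmp9, which inflammatory cells release, was 0.401 to 0.601 FPKM in control and 0.348 to 0.466 FPKM in model samples, with a difference of -0.06 ± 0.08.

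The collagenases, which cleave intact fibrillar collagen, were barely detected. Mmp8 was 0.490, 0.696 and 0.332 FPKM in control and 0.628, 0.449 and 0.294 FPKM in model samples. Mmp13 was listed at 0, 0.499 and 0.434 FPKM in the controls and at 0.667, 0 and 1.15 FPKM in the model samples. Each group thus held a sample at 0, and the difference was 0.25 ± 0.30 with a limma p of 0.439. Without model 2, the model sample at 0, Mmp13 met the call rule with a difference of 0.55 and a limma p of 0.0475, but without model 3 the difference was 0.00079 with a p of 0.998, and without control 1 it was 0.063 with a p of 0.851. Mmp12, the macrophage elastase, was 0.842, 1.23 and 1.74 FPKM in the controls and 0.640, 0.917 and 1.09 FPKM in the model samples, a difference of -0.26 ± 0.17 with a limma p of 0.184. Markers of the cells that release these enzymes spanned a wide range. Of the neutrophil genes, S100a9 was 3.44 to 5.53 FPKM and Csf3r 3.33 to 6.62 FPKM over the 6 samples, while Elane and Ltf were at most 0.0447 FPKM. Of the macrophage genes, Csf1r was 24.1 to 30.4 FPKM and Gpnmb 20.7 to 32.1 FPKM, while Spp1 was at most 0.361 FPKM. Cd68 was 1.30 FPKM in control 3 and 1.21 FPKM in model 2, but at least 20.7 FPKM in the other samples. Control 3 and model 2 also had the lowest macrophage sum of their group. The summed neutrophil markers were 11.9 to 17.1 FPKM in control and 11.3 to 13.7 FPKM in model samples, the summed macrophage markers were 68.6 to 96.3 and 71.4 to 102 FPKM, and limma called 0 of 8 macrophage and 0 of 6 neutrophil markers tested, with 0 at an unadjusted p of at most 0.05.

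Membrane-type MMPs are held at the cell surface. Mmp14, the activator of proMMP2, was 20.0, 19.3 and 13.2 FPKM in control and 19.0, 16.9 and 16.3 FPKM in model samples, a difference of 0.01 ± 0.16. Mmp15 was 19.8, 21.4 and 17.0 FPKM in control and 24.0, 19.7 and 19.9 FPKM in model samples, a difference of 0.12 ± 0.12. Its annotated isoform differed more, at 14.7, 11.4 and 12.5 FPKM in control and 17.3, 15.5 and 16.2 FPKM in model samples, so that every model sample lay above every control sample. That isoform had a limma p of 0.0310, an adjusted p of 0.945 and a log2 ratio of 0.35, short of the call rule. Of 46 annotated family transcripts tested, 4 were separated higher and 1 lower, against 9.90% separated among all annotated transcripts. The Mmp15 isoforms that are not annotated had a lower mean in the model, at 4.86 against 6.53 FPKM. Mmp17 and Mmp24 had means of 1.69 and 1.06 FPKM and differences of -0.11 and -0.10.

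Mmp16 had the smallest p of all members, and its groups were narrow and apart. It was 9.55, 8.87 and 9.26 FPKM in the controls and 6.86, 7.10 and 7.14 FPKM in the model samples. The means were 9.22 ± 0.341 and 7.04 ± 0.150 FPKM (SD, n = 3 each), a difference of -0.35 ± 0.08 with a limma p of 0.00506 and an adjusted p of 0.934. Most of the difference in mean FPKM lay outside the spliced transcripts of Mmp16. Unspliced transcripts assembled inside its introns, on the strand opposite to the gene, summed to 4.85, 4.21 and 4.71 FPKM in control and 2.53, 2.87 and 2.61 FPKM in model samples. The spliced transcripts on the gene's own strand were at 4.70, 4.66 and 4.55 FPKM in control and 4.34, 4.23 and 4.54 FPKM in model samples. For these the groups still did not overlap, but model 3 lay just under control 3, and the difference was -0.07 ± 0.09 with a limma p of 0.461.

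The same held for 3 ADAMTS genes whose sums were lower in the model. Adamts12, which cuts the cartilage protein COMP, was 7.30, 5.98 and 6.12 FPKM in control and 4.82, 5.29 and 3.90 FPKM in model samples, a difference of -0.40 ± 0.14 with a limma p of 0.0254. A transcript of 365 bases with 1 exon, at chr2:61058802-61059166 in an Adamts12 intron and on the opposite strand, carried it. It stood at 3.26, 2.43 and 3.17 FPKM in control and 1.30, 1.42 and 0.911 FPKM in model samples, and it was called, with a difference of -0.84 ± 0.17, a limma p of 0.00297 and an adjusted p of 0.691. The annotated Adamts12 messenger RNA was 4.04, 3.55 and 2.95 FPKM in control and 3.52, 3.86 and 2.99 FPKM in model samples, a difference of -0.02 ± 0.14.

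For Adamts17, a secreted proteinase whose human gene is linked to a disorder of the lens and of growth, intronic transcripts on the opposite strand made up 53.2% of the sum and were 16.9, 11.1 and 10.3 FPKM in control and 10.1, 8.33 and 6.30 FPKM in model samples. Its annotated transcript went the other way in the means, from 8.87 ± 0.927 to 9.58 ± 0.596 FPKM, with overlapping groups. For Adamts6, 12 intronic transcripts without an assigned strand made up 83.1% of the sum, with means of 17.4 ± 3.42 FPKM in control and 12.2 ± 4.21 FPKM in model samples. The annotated Adamts6 transcripts had means of 2.97 ± 0.337 and 3.07 ± 0.177 FPKM. With spliced transcripts on the gene's strand only, 0 of 39 members had a limma p of at most 0.05, where 4.46% of all genes passed, and the smallest p of a member was 0.0570, for Adamts2.

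**Figure D3:**
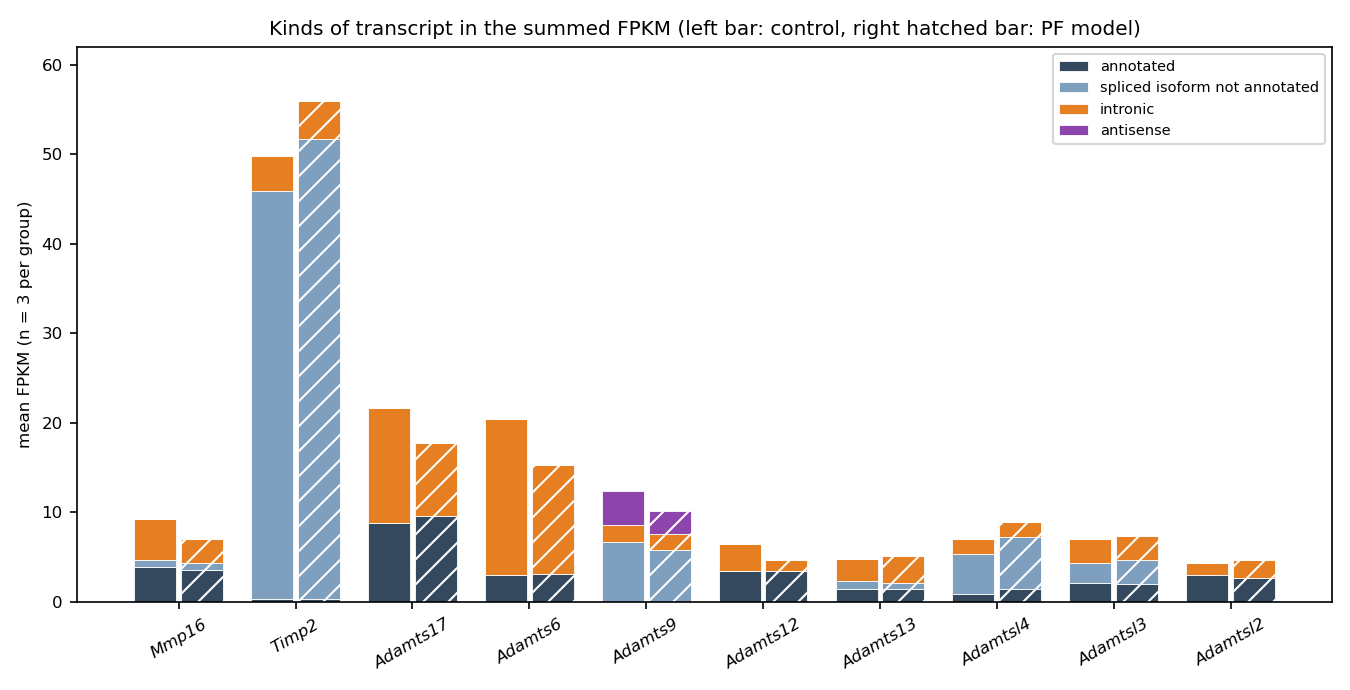
Mean FPKM in control (left bar) and PF model samples (right, hatched bar; n = 3 each) of the 10 genes whose symbol was also given to transcripts inside introns, split by kind of transcript. In Mmp16, Adamts12, Adamts17 and Adamts6 the orange intronic part is smaller in the model bar while the dark annotated part stays within 0.71 FPKM of the control bar.

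Transcripts inside introns were found for 10 of the 40 genes, and their sum had a lower mean in the model for 7 of these and a higher mean for 3. The sums of 3 genes, Mmp16, Adamts12 and Adamts17, did not overlap between the groups, all lower in the model. The share of such sums that are separated over all genes was not computed, so this count has no background beside it. Taken singly, 3 of the 24 intronic transcripts of these genes did not overlap, against 11.3% of single intronic transcripts over the whole table. Adamts6 alone held 12 of the 24. Of the 24 intronic transcripts, 7 lay opposite to the gene, 2 on its strand and 15 had no strand assigned, and 18 of the 24 had a lower estimate in the model. Among all genes, 60.8% of 9704 intronic transcripts tested had a lower estimate, with a median difference of -0.06, against a median of -0.32 for the 24.

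Mmp19 and Mmp23 were the members of the remaining MMPs with the highest levels. Mmp19 was 4.06 to 4.32 FPKM in control and 4.02 to 6.19 FPKM in model samples, a difference of 0.21 ± 0.15. Mmp23 was 1.18 to 1.37 FPKM in control and 1.34 to 1.92 FPKM in model samples, a difference of 0.22 ± 0.12. Both had overlapping groups. Mmp21, known for a role in left-right patterning, had a mean of 0.169 FPKM.

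Of the inhibitors, Timp1 is the one that inflammation and growth factors induce in many cells. It was 9.61, 7.93 and 9.04 FPKM in control and 5.62, 7.52 and 9.59 FPKM in model samples, a difference of -0.22 ± 0.18 with a limma p of 0.263. Model 1 was lowest and model 3 was close to the highest control. Without model 3 the difference was -0.39 with a limma p of 0.0473, and without model 1 it was -0.05 with a p of 0.746. Timp2 was 57.6, 48.6 and 43.4 FPKM in control and 58.2, 47.6 and 61.9 FPKM in model samples, a difference of 0.16 ± 0.14.

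Timp3, the inhibitor that binds to the matrix, was 64.5, 53.6 and 64.6 FPKM in control and 52.8, 55.3 and 83.9 FPKM in model samples. All of its FPKM lay in an assembled isoform that is not annotated, and a fit that included such genes gave a difference of 0.04 ± 0.19 with a limma p of 0.821. Timp4, which is known for its expression in heart, was 0.560, 0.548 and 0.429 FPKM in control and 0.276, 0.322 and 1.10 FPKM in model samples, a difference of 0.01 ± 0.20. The highest sample of Timp2, Timp3, Timp4 and Mmp2 was in each case model 3, the library with the highest cardiac markers. Model 3 was also highest for the smooth muscle genes Acta2 (88.5 FPKM), Myh11 (41.5), Cnn1 (13.0) and Des (21.6) and for Col1a1 and Col1a2. The smooth muscle gene Tagln was instead highest in control 2, at 4.89 FPKM against 3.25 FPKM in model 3. The fibroblast markers Pdgfra, Dcn, Lum and Postn were likewise highest in samples other than model 3. The other listed fibroblast markers, Col1a1, Col3a1, Tcf21 and Cthrc1, were highest in model 3. The part of these cell types in the values was not tested. Without model 3, Timp4 was lower in the model by -0.22 on the log2 scale with a p of 0.0350, and Mmp2 differed by 0.05.

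In Timp1, Mmp16 and Mmp19, picked after their values were seen, the annotated isoform varied between samples more than the sum did. This did not hold for every member. In Mmp14 the annotated isoform had a control SD of 1.95 FPKM and the sum a control SD of 3.72 FPKM. The annotated Timp1 isoform was 7.68, 4.15 and 6.96 FPKM in control and 0.576, 1.04 and 8.16 FPKM in model samples, and the assembled isoform that is not annotated was 1.93, 3.78 and 2.09 FPKM in control and 5.04, 6.48 and 1.43 FPKM in model samples. Models 1 and 2 thus had most of their Timp1 in the assembled isoform, while model 3 resembled controls 1 and 3. For Mmp16 the assembled spliced isoform reached 2.06 FPKM in control 2 and 2.48 FPKM in model 2 and was at most 0.0115 FPKM in the other samples. For Mmp19 it ranged from 0.00203 FPKM in model 2 to 3.99 FPKM in model 3.

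**Figure D4:**
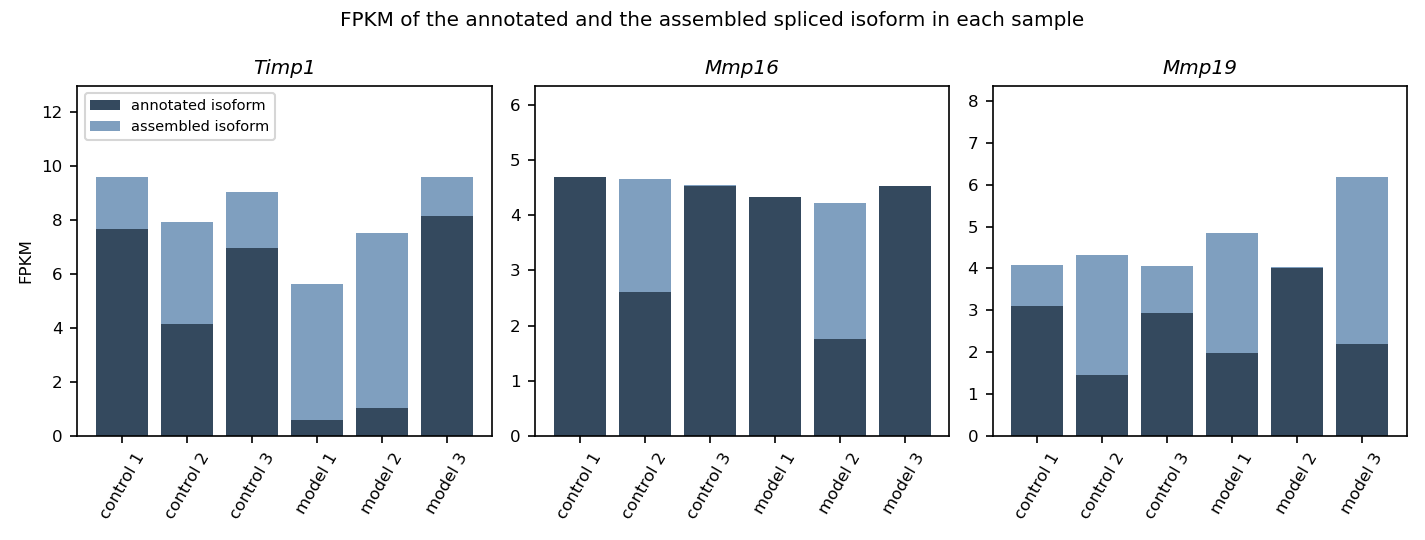
FPKM of the annotated isoform (dark) and the assembled spliced isoform (light, stacked) of Timp1, Mmp16 and Mmp19 in each of the 3 control and 3 PF model samples. The split between the isoforms changes from sample to sample, with Timp1 mostly in the assembled isoform in models 1 and 2, while the Mmp16 total stays between 4.23 and 4.70.

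The aggrecanase-type ADAMTS enzymes cut proteoglycans such as versican and aggrecan. Adamts1 was 16.3, 21.6 and 25.3 FPKM in control and 23.9, 18.4 and 14.3 FPKM in model samples, a difference of -0.16 ± 0.22. Adamts15 was 13.1, 16.5 and 13.7 FPKM in control and 14.8, 15.2 and 17.7 FPKM in model samples, a difference of 0.14 ± 0.12. Its annotated isoform was 6.18 to 6.65 FPKM in control and 7.00 to 11.1 FPKM in model samples, without overlap, and its limma p was 0.0513. As stated for Mmp15, 9.90% of all annotated transcripts were separated. The Adamts15 isoforms that are not annotated had a lower mean in the model, at 6.37 against 7.09 FPKM. Adamts5, an enzyme studied in cartilage loss, was 2.81, 2.72 and 2.53 FPKM in control and 2.85, 3.73 and 3.04 FPKM in model samples, with a difference of 0.19 ± 0.13 and a limma p of 0.200. Adamts9 carried transcripts antisense to its exons that made up 28.2% of its sum and an intronic transcript on the opposite strand that made up 16.5%, and its difference was -0.28 ± 0.16. Adamts8 had a mean of 9.22 FPKM and a difference of 0.13 ± 0.12, while Adamts4 and Adamts20 had means of 0.129 and 0.0191 FPKM. The versican gene Vcan itself was 2.58 to 2.97 FPKM in control and 2.84 to 3.23 FPKM in model samples, and aggrecan was at most 0.0570 FPKM.

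The procollagen N-proteinases Adamts2, Adamts3 and Adamts14 remove the amino end of fibrillar procollagens, and all of their estimates were higher in the model. Adamts2 was 7.71, 7.47 and 6.63 FPKM in control and 7.98, 8.66 and 9.84 FPKM in model samples, so that every model sample lay above every control sample. The difference was 0.25 ± 0.11 with a limma p of 0.0646. Adamts14 was 3.71 to 4.17 FPKM in control and 3.83 to 4.58 FPKM in model samples, a difference of 0.11 ± 0.12, and Adamts3 had a mean of 0.246 FPKM. The substrate Col3a1 was 154 to 178 FPKM in control and 189 to 233 FPKM in model samples, with a difference of 0.30 ± 0.11 and a limma p of 0.0365. The other fibrillar collagen genes listed, Col1a1, Col1a2 and Col5a1, overlapped between the groups. Their limma p-values were 0.197, 0.318 and 0.505.

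Of the remaining ADAMTS enzymes, Adamts10 was the most abundant at 23.5, 24.7 and 20.6 FPKM in control and 19.6, 27.8 and 18.4 FPKM in model samples, and the difference was -0.08 ± 0.16. Its annotated transcripts made up 4.22% of the sum. They were 0.762 to 2.30 FPKM in control and 0.497 to 0.630 FPKM in model samples, without overlap. A fit of annotated transcripts only gave a limma p of 0.102. Of all annotated transcripts taken singly, 9.90% were separated. Adamts7 had a mean of 3.66 FPKM and a difference of 0.03. Adamts16, Adamts18 and Adamts19 had means between 0.00578 and 0.137 FPKM, so little that a difference was not detectable. Adamts13, the von Willebrand factor protease, had a mean of 4.95 FPKM, of which 54.9% was an intronic transcript on its own strand. All 4 ADAMTSL estimates were higher in the model with all transcripts, and 3 were with spliced transcripts on the gene's strand, where Adamtsl2 turned to -0.10. The largest was that of Adamtsl4, a microfibril-associated protein, which was 6.34, 5.51 and 9.20 FPKM in control and 9.18, 9.06 and 8.50 FPKM in model samples. Control 3 was as high as the model samples, and the difference was 0.33 ± 0.17 with a limma p of 0.102. Without control 3 it was 0.52 with a limma p of 0.00474, and without control 2 it was 0.19 with a p of 0.290. Adamtsl3 was 6.70 to 7.41 FPKM in control and 6.02 to 8.24 FPKM in model samples, and Adamtsl2 and Adamtsl5 had means of 4.50 and 1.75 FPKM with overlapping groups.

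Summed over each family, the groups were close. The MMP sum was 91.4 ± 5.74 FPKM in control and 96.0 ± 7.23 FPKM in model samples, and the TIMP sum was 120 ± 11.0 and 128 ± 24.8 FPKM. The ratio of the TIMP sum to the MMP sum was 1.32 ± 0.113 in control and 1.33 ± 0.177 in model samples. The ADAMTS sum was 151 ± 5.71 FPKM in control and 140 ± 14.0 FPKM in model samples with all transcripts, and 106 ± 2.81 and 108 ± 6.48 FPKM with spliced transcripts on the gene's strand. The direction of the ADAMTS sum thus depended on the intronic transcripts. The ADAMTSL sum was 18.4 to 21.0 FPKM in control and 21.3 to 24.6 FPKM in model samples with all transcripts, and overlapped with spliced ones alone.

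Single transcripts were tested over the whole table, and 3 of the 113 family transcripts tested were called, against 2.98% of 64867 transcripts. By limma 0 had an adjusted p below 0.05, against 0.0277% of all transcripts, while 5 had an unadjusted p of at most 0.05, against 4.53%. Beside the intronic Adamts12 transcript, the calls were assembled isoforms at low levels. An Adamts1 isoform was 0.460, 1.16 and 0.872 FPKM in control and 0.351, 0.133 and 0.0221 FPKM in model samples, with a difference of -0.64 ± 0.18 and a limma p of 0.0145. An Mmp14 isoform was 0.344, 0.0112 and 0.0166 FPKM in control and 0.375, 0.493 and 0.482 FPKM in model samples, with a difference of 0.38 ± 0.13 and a limma p of 0.0274. The Adamts1 call was lost without model 3, at a p of 0.0527. The Mmp14 call was lost with any of control 2, control 3, model 2 or model 3 left out, at p between 0.0708 and 0.0885, and the Adamts12 call remained whichever sample was left out.

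Activators and restraints of these enzymes outside the families were listed with them. Of 25 listed activators and regulators, 22 were in the table and 20 were tested, and 0 were called by limma. Cd44, a surface receptor that docks MMP9, was the 1 gene with an unadjusted p of at most 0.05, at 26.1, 25.8 and 25.6 FPKM in control and 32.5, 28.8 and 28.3 FPKM in model samples, a difference of 0.20 ± 0.08 with a limma p of 0.0382. Furin, which cleaves the propeptide of membrane-type MMPs, was 0.0641, 5.13 and 2.96 FPKM in control and 6.49, 5.32 and 8.87 FPKM in model samples. The groups of Furin did not overlap, and its difference was 1.39 ± 0.62 with a limma p of 0.0638. Tfpi2 was the 1 regulator with all model samples below all controls, at levels of 0.136 to 0.334 FPKM. Of the 20 regulators tested, 2 (Cd44 and Furin) were thus separated higher and 1 lower. Among all genes, 4.86% were separated higher and 5.83% lower, and 4.90% had an unadjusted limma p of at most 0.05.

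Of the related ADAM and astacin proteinases, 0 of 13 tested were called, and none had an unadjusted limma p of at most 0.05. Among 18 matrix substrates tested, 0 were called, and Col3a1 with a higher and Eln with a lower level had an unadjusted p of at most 0.05. Over all genes tested, 4.90% had such a limma p. Eln, the elastin gene, was 90.0, 98.1 and 82.3 FPKM in control and 72.8, 83.1 and 71.2 FPKM in model samples, a difference of -0.25 ± 0.10 with a limma p of 0.0456. Fibroblast markers, Col3a1 among them, summed to 353 to 385 FPKM in control and 416 to 465 FPKM in model samples with 0 of 8 called. Of the 8 estimates, 4 were higher and 4 lower (Pdgfra, Dcn, Lum and Cthrc1), so that the higher sum rested mainly on Col3a1. Smooth muscle markers summed to 98.5 to 130 FPKM and 94.3 to 168 FPKM with 0 of 5 called.

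Circular RNAs, which arise when a downstream splice site joins an upstream one, were rare for these hosts. The circRNA table held 29 circRNAs of 11 family genes, with 67 of 14904 back-splice reads, 26 in control and 41 in model samples. Of the 29, 23 were seen in 1 sample only. Adamts17 gave 3, 0 and 1 reads in control and 1, 11 and 8 reads in model samples, and Adamts10 gave 1, 3 and 3 reads and 3, 6 and 5 reads. The circRNA with the most reads, with 3 exons of Adamts17, had 5 reads in model 2, 7 in model 3 and 0 in the other samples. These counts were too few for a test and are given as a description.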

How the data were processed

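RNA was measured in lung tissue of 3 control and 3 PF model rats, grouped by the labels, and all 24 measurement columns were assigned to a sample. The authors used Cutadapt for trimming, Bowtie2 and Tophat2 for mapping and StringTie for assembly in each library and merging. They deposited FPKM of each transcript, estimated by StringTie and Ballgown. HISAT2, StringTie and TopHat are named in the submitters' processing notes, without versions. Per-base coverage, a signal without scaling for depth, was deposited beside it. The circRNA table deposited by the authors holds back-splice read counts from CIRCexplorer, which were used here, and a scaled signal (SRPBM). The genome build is not given in the sources used here.

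FPKM were summed per gene symbol, without weights, with transcripts on the opposite strand, inside introns and run-on transcripts included. Genes with an annotated transcript and FPKM above 0 in at least 3 of 6 samples were fitted with limma 3.58.1 (trend, two-sided) on log2(FPKM + 1) in R 4.3.3, over the whole table, with Benjamini-Hochberg adjustment over all genes tested. Transcripts were fitted likewise. The script was tested on simulated data. An exact permutation test of 3 against 3 samples cannot give a p below 0.1 and was not used. Spliced transcripts on the gene's strand are those with class codes for annotated, contained or alternative splice isoforms (an alternative added after seeing the data). The other alternatives were pseudocount 0.1, no filter, a mean of at least 1 FPKM, TPM, upper quartile scaling, no trend, a replicate block, a length-weighted sum, annotated transcripts only, and each sample left out. Promoters were from RefSeq GRCr8, read with Python 3.11.15.

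Genes named are those called, all TIMPs, the 2 highest of each role group, and the 4 with the smallest p in each direction. The other members are named so that each is accounted for, Adamts5 and single isoforms after their values were seen. The members and lists were chosen with earlier results of these data known.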

Additional observations from a re-analysis of the deposited data

How the results depend on the processing

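No family gene was called under any alternative except without model replicate 2, where 1 gene, Mmp13, was called, so that the count ranged from 0 to 1 over the samples left out. Among all genes 293 were called, 80 with a mean of at least 1 FPKM and 519 with annotated transcripts only, and 317 to 409 with 1 sample left out. Among all transcripts 1934 were called, 1066 with a mean of at least 1 FPKM, and 2106 to 2531 with 1 sample left out. Of the 3 family transcripts called, 1 was called with a mean of at least 1 FPKM. With 1 sample left out, 3 to 8 family transcripts were called, the 8 without control replicate 3. These were not always the same transcripts: without model replicate 3, only the intronic Adamts12 transcript of the 3 was still called. With a replicate block 311 genes, 0 family genes, 1943 transcripts and 3 family transcripts were called. The Mmp14 isoform was not called under the block (unadjusted limma p of 0.0612), and no family gene changed its call. The numbers did not pair the samples, since same-numbered samples correlated at 0.07, 0.03 and -0.07 in their deviations, and control 3 correlated best with model 2. Of 388 comparisons of a value with an alternative, 367 kept their direction and their outcome under the call rule. Their unadjusted p could still cross 0.05. The limma p of Adamts12 was 0.0254, but 0.0622 with TPM and 0.915 with annotated transcripts only. That of Adamts17 was 0.122, but 0.0371 without control replicate 3. Signs changed for Adamts1 with annotated transcripts (0.35) and over left-out samples (-0.34 to 0.016), and for Adamts10 with TPM (0.0022), the length-weighted sum (0.052) and left-out samples (-0.25 to 0.031). They changed for Adamts17 with the length-weighted sum (0.031) and with annotated or spliced transcripts (0.10), and for Adamts6 with annotated or spliced transcripts (0.040). They also changed for Adamtsl3 with annotated transcripts (-0.087) and left-out samples (-0.021 to 0.18), for Timp4 with pseudocount 0.1 (-0.080) and left-out samples (-0.22 to 0.14), and over left-out samples for Mmp14 (-0.17 to 0.12) and Mmp8 (-0.13 to 0.042). The lower Adamts17 and Adamts6 sums rest on intronic transcripts, and the cause of the other changes was not tested. Genes under 1 FPKM carry too little coverage for a firm statement.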
